A study of Mus musculus with 2 samples.

Results

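The 87 cytoplasmic ribosomal protein genes described here were taken by name from the 27998 genes of the deposited tables. They are the symbols starting Rpl or Rps followed by a digit, with Rplp0, Rplp1, Rplp2 and Rpsa added, and without names holding "-ps" (named as pseudogenes) or starting Rps6k (kinases). Measured values do not enter that rule, though the members were chosen with earlier results of these data known. The cells came from the cochlea, the spiral organ of hearing, of wild-type C57BL/6 mice at 20 days of age, bought from the Jackson Laboratory and given no treatment that the labels name. Per the labels, 5 to 8 mice gave tissue that was separated with trypsin for droplet single-cell RNA libraries, sequenced on the Illumina HiSeq. The samples form 1 group of 2 libraries, so the comparisons below are between cell classes, and no label says that the libraries came from separate animals. The p-values below therefore measure only how far the differences between classes varied between these libraries, a spread that may be technical.

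Each ribosome is built from a small subunit, which reads the messenger RNA, and a large subunit, which joins the amino acids. Most ribosomal proteins are needed in equal number in every ribosome, and their messenger RNAs belong to the TOP class (terminal oligopyrimidine, a run of C and T at the first bases), whose translation is tied to growth signals. A few proteins have a second gene of similar sequence, a paralogue, and loss of 1 copy of several ribosomal protein genes causes Diamond-Blackfan anaemia, a failure of red cell precursors.

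Of the 87 genes, 77 encode canonical subunit proteins, 31 of the small and 46 of the large subunit. The other 10 were Rps27l, Rps27rt, Rpl7l1, Rpl22l1, Rpl36al, Rpl39l, Rpl3l and Rpl10l, which are paralogues, Rps19bp1, which encodes a protein that binds RPS19 and is no ribosomal protein, and Rpl6l, annotated as a processed pseudogene in GENCODE M21. The family held 4276794 UMIs (unique molecular identifiers, 1 per captured transcript) in the cells kept, and 83 of the 87 genes had at least 1000. The median gene had 51663 UMIs. Expression was spread over the family: the 5 genes with the most UMIs, Rpl41 (114784), Rpl13 (105287), Rps29 (102396), Rps14 (101123) and Rpl37a (94338), together held 12.1% of it. At the other end stood Rpl7l1 with 1183 UMIs, Rps19bp1 with 962, Rpl39l with 16, Rpl3l with 4 and Rpl10l with 1. These are counts of molecules, not divided by transcript length. Across 82 genes with an annotated coding length, the counts showed no relation to it (Spearman's rho 0.027, a description across genes of the same libraries).

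The bases around the transcription start are shown for some of the genes whose share of the family differed most among cell classes and some of those named for their libraries or pairs. Each line runs from 5 bases before to 25 bases from the annotated start, on the sense strand, from RefSeq promoters of GRCm38.p6. Capitals mark CTTTCC, or CTCTTT where it stands alone, a pair of pyrimidine motifs.
Rps27, chr3:90213624-90213653, minus strand: tcgctcCTTTCCggcggtgacgacctccct
Rps27rt, chr9:114982715-114982744, minus strand: ccttgCTTTCCggcggtgacgacctcccta
Rps27l, chr9:66946081-66946110, plus strand: ccgccgcctctatcccggaagttgctgagg
Rpl36a, chrX:134585649-134585678, plus strand: gcaccgcctataaacttccgttgcggctct
Rpl36al, chr12:69184043-69184072, minus strand: gctcaggttcagttccgacttccgctctgt
Rpl22l1, chr3:28805503-28805532, plus strand: agcccgttctcttcccacggctgcagctca
Rpl41, chr10:128549144-128549173, minus strand: ggctcggaagtgacgacaccgagcacgcca
Rps19bp1, chr15:80264282-80264311, minus strand: gtagctcgccgcgtgtgggcggggctcgga
Rps26, chr10:128626482-128626511, minus strand: ccgccggatcCTCTTTcgagtcttggctcc
Rpl38, chr11:114668575-114668604, plus strand: tcgttCTTTCCccgttctcttcggttctca
Rpl28, chr7:4792960-4792989, plus strand: tgtctctCTTTCCgtctccggccgccatag
Rpl38 and Rpl28 are printed as examples of members that hold CTTTCC, and Rps26 for its place among the 10 genes that varied most. Rps29, Rplp0, Rpsa and Rpl7l1, also among those 10, are not printed, nor is a second annotated start of Rps27l.

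A promoter window was found by symbol for 66 of the 87 genes and for 26959 other genes. Between 20 bases before and 50 after the start, on the sense strand, CTTTCC stood in 30.3% of the ribosomal genes and 3.73% of the others. CTCTTT, which can share bases with CTTTCC, stood in 28.8% and 2.98%. A run of at least 7 pyrimidines in the same stretch was present in 54 of the 66 (81.8%) and in 41.5% of other genes. The motif CTTCCG, searched on both strands from 250 before to 50 after the start, stood in 66.7% against 18.7%, and TATAAA in 10.6% against 15.7%. From 20 before to 50 after the start, also on both strands, TATAAA went the other way, with 6.06% (4 of 66) against 2.34%. Of the 10 genes whose share of the family varied most among classes, 9 had a promoter window and 7 of those held the pyrimidine run, against 47 of 57 of the rest, so the run did not mark them off. A match is only letters in a window, not a measured site.

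The printed starts bear on the paralogue pairs. Rps27 and Rps27rt share 38 bases in a row in their promoter windows, from bases 2 and 1 after the annotated starts, so within the transcripts. They have the same coding sequence (252 of 252 bases), so reads from it could not be told apart. Their 3' ends were not compared, and how their reads were counted cannot be seen, so their separate values are uncertain. Rps27 and Rps27l share at most 8 bases in a row in their promoter windows and are 76.2% identical in coding sequence. Coding identity was 87.7% for Rpl36a and Rpl36al, 72.7% for Rpl22 and Rpl22l1, and 64.8% for Rpl7 and Rpl7l1.

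Library 1 held 1610 barcodes and 20212520 UMIs and library 2 held 720 barcodes and 7094752, and 1329 and 640 cells passed the filters. Only 2 barcodes occurred in both libraries. Cells were clustered without any ribosomal protein gene, and clusters were called "X-like" from fixed marker genes or, where these gave no clear name, by their 2 leading genes (by 1 for the Fxyd2 cluster). The named classes held 9 of 10 hair cell markers, 9 of 9 macrophage markers, 8 of 12 of non-sensory cochlear epithelium and 5 of 9 of connective tissue fibroblasts, while the early erythroblast-like cluster held 8 of 10 erythroid markers and led with Hemgn and Klf1. The labelled tissue was thus present, together with blood cell classes. Droplets can hold free RNA, and no correction was made for it. Barcodes left out for having under 300 genes held 11.0% and 10.6% ribosomal protein UMIs outside haemoglobin. They may be red cells as well as empty droplets, so they give no measure of free RNA.

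Ribosomal protein genes took 20.1% of UMIs outside haemoglobin in library 1 and 21.3% in library 2, and from 4.97% to 27.7% among the cell classes of library 1. The top value there was that of early erythroblast-like cells, which had 20.3% in library 2. The share was also high in B lineage-like cells, at 26.5% (71 cells, library 1 only), and in the Tnc and Ccl17 cluster, which carries 3 of 5 stria basal cell markers, at 25.6% and 26.0% (167 and 30 cells). The Fam71a and Apold1 cluster followed with 24.4% and 23.8% (44 and 126 cells). The levels of the last 2 clusters lay near each other in both libraries, and the 95% exact binomial intervals, which cover counting error only, were under 1 point wide.

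Fibroblast-like cells (150 and 165) stood at 20.5% and 22.6%, the Gm42726 and Tnfaip6 cluster at 21.7% and 24.6%, and the Lox and Rarres1 cluster, whose leading genes include the cochlear fibrocyte gene Coch, at 21.6% and 24.0%. In each of these 3 classes the libraries differed by more than the classes did within a library. The Bglap and Mgp cluster, with 4 of 9 osteoblast markers, had 20.6% and 17.3%. Macrophage-like cells had 16.4% and 17.1%.

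Classes with markers of cochlear epithelium or supporting cells were lower. Non-sensory cochlear epithelium-like cells had 13.7% and 17.0%, the Fabp7 and Fzd9 cluster 13.3% and 15.96%, the Fibin and Otol1 cluster 13.8% and 15.3%, and the Vmo1 and Rnase1 cluster, with 4 of 6 stria marginal cell markers, 11.97% and 13.8%. Within this group only the Vmo1 and Rnase1 cluster was below the other 3 in both libraries. The Fabp3 and Rbp7 cluster, seen in library 1 only, had 16.4% (28 cells).

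The lowest shares were in hair cell-like cells, which turn sound into nerve signals, at 9.27% and 9.71% (48 and 4 cells), and in the Fxyd2 cluster, with another 4 of the 6 marginal cell markers and 4 of 7 cochlear fibrocyte markers, at 9.05% and 7.34% (52 and 34 cells). Late erythroid cell-like cells had 10.1% and 8.10%. Stria intermediate cell-like cells, the pigment cells of the stria, had 5.83% (19 cells, library 2), and the Nefh and Snap25 cluster, with 7 of 8 spiral ganglion neuron markers, 4.97% (6 cells, library 1). These last values rest on single libraries.

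**Figure D1:**
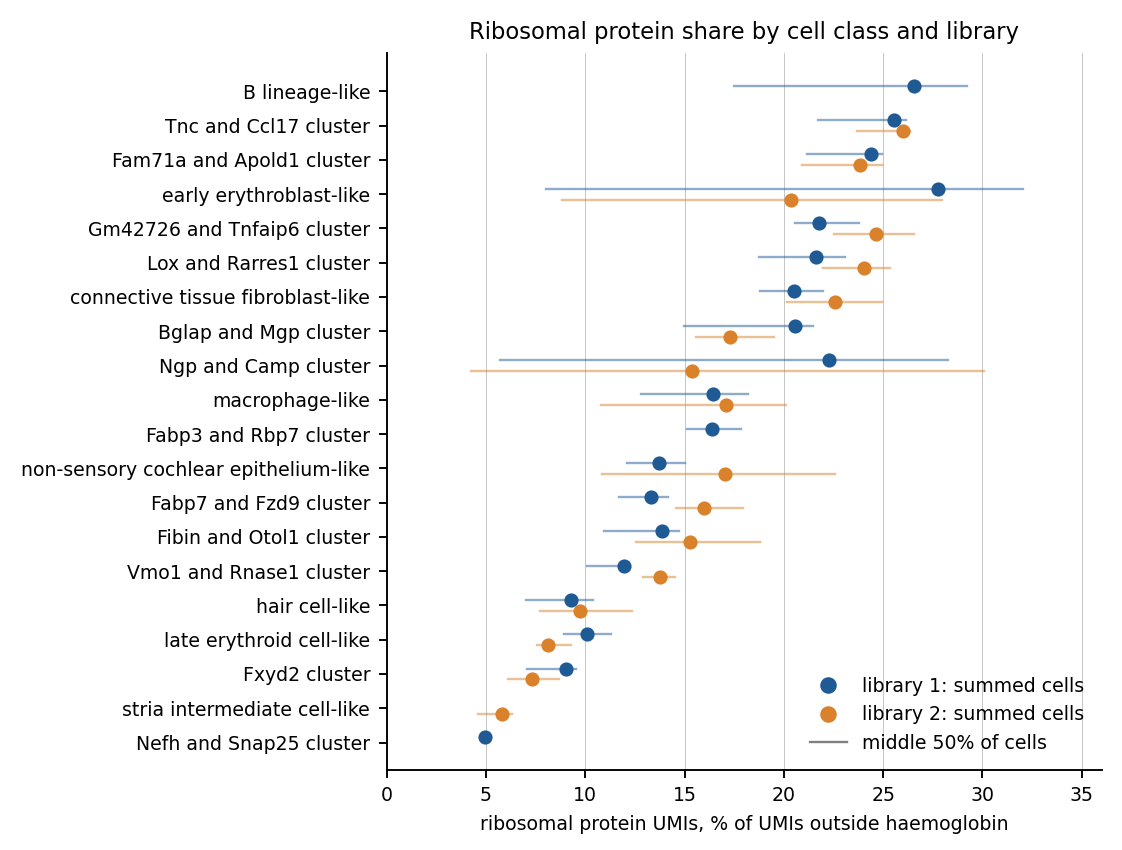
Share of UMIs outside haemoglobin that belong to the 87 ribosomal protein genes, in percent, for each cell class and library (points), with lines over the middle 50% of single cells. Tnc and Ccl17 cells stood at 25.6% and 26.0%, hair cell-like cells at 9.27% and 9.71%, and the largest gaps between libraries were in early erythroblast-like cells and the Ngp and Camp cluster.

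The mitochondrial share of the same UMIs ran in the opposite order. Hair cell-like cells had 9.36% and 11.9% mitochondrial UMIs, the Fxyd2 cluster 9.16% and 11.1%, and Tnc and Ccl17 cells 2.68% and 2.89%. Across classes Spearman's rho between the 2 shares was -0.92 in library 1 (19 classes) and -0.75 in library 2 (17 classes). With mitochondrial UMIs taken out of the denominator of the ribosomal share it was -0.918 and -0.681. The mitochondrial share was still taken of UMIs that include the ribosomal ones. The 2 shares thus stayed tied, and the part of the denominator in the inverse order was not tested. Classes of a library share its depth and free RNA, so these are descriptions. The mitochondrial part in the ribosomal share was not tested further.

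Erythroid cells spanned both ends of the range. Red cell precursors fill with haemoglobin as they mature and lose their ribosomes at the end. In library 1, the 32 erythroid cells with haemoglobin under 25% of their UMIs had a median ribosomal share of 32.5% of the rest, and the 10 cells between 25% and 50% had 22.9%. From 50% to 75% haemoglobin the median was 9.38% (60 cells), from 75% to 90% 9.28% (141 cells), and above 90% 10.5% (167 cells). The largest step between neighbouring bins thus lay across 50% haemoglobin. In library 2 the same bins gave 34.9% (2 cells), 25.5% (1 cell), 8.49% (5 cells), 5.80% (5 cells) and 8.63% (26 cells), with the largest step at the same place and few cells. The median number of UMIs outside haemoglobin per cell went from 18350 in the lowest bin of library 1 to 783 in the highest, so the last bins are shallow.

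This step ran through the early erythroblast-like class. In library 1 its 42 cells under 50% haemoglobin had a median share of 32.1% and its 43 cells at or above 50% had 8.01%. In library 2 the medians were 30.4% (3 cells) and 8.82% (4 cells). Only 7 of the 92 cells lay between 45% and 55%. Over the 85 cells of library 1 Spearman's rho between ribosomal and haemoglobin share was -0.929, a description over cells of 1 library. The whole class had 27.7% in library 1 and 20.3% in library 2, and haemoglobin took 27.7% and 52.6% of its UMIs. Its cells under 50% haemoglobin, pooled, had 31.3% and 31.4%. In late erythroid cell-like cells the relation had the other sign (0.354 over 325 cells and 0.462 over 32).

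**Figure D2:**
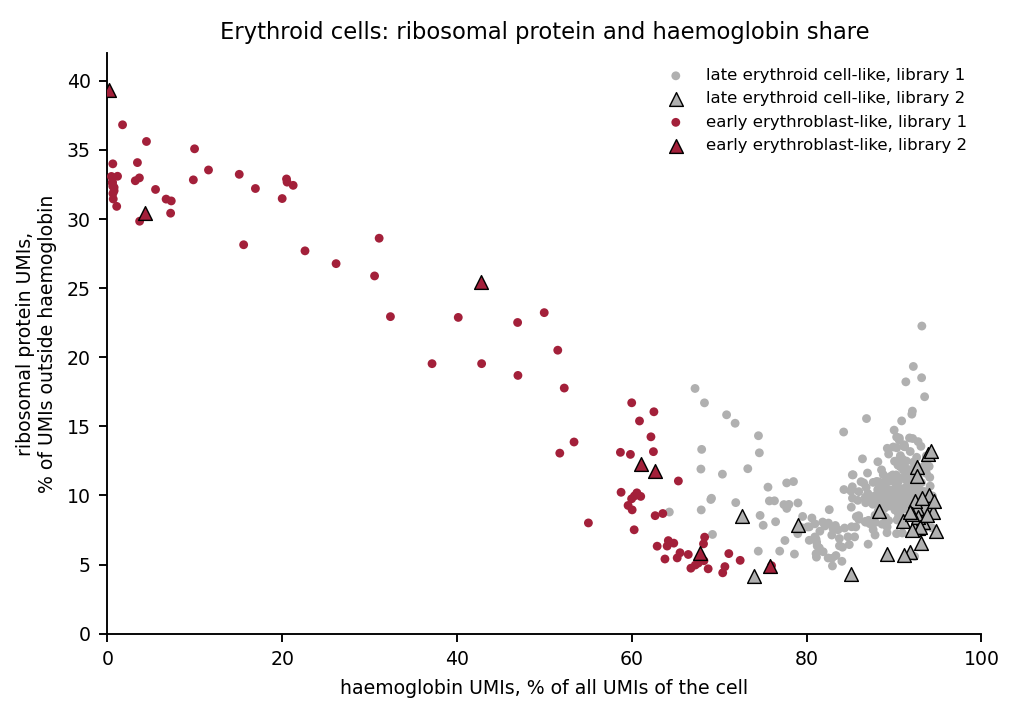
Ribosomal protein share of UMIs outside haemoglobin (percent) against haemoglobin share of all UMIs (percent), 1 point per erythroid cell, by library and class. Cells under 25% haemoglobin have a median of 32.5% in library 1, and the bins above 50% have medians between 9.28% and 10.5%.

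To ask which members carried these shares, counts were summed per library and class, and each of 16 classes seen in both libraries was set against the mean of the other 15 in edgeR's quasi-likelihood test, with Benjamini-Hochberg adjustment over 5513 genes that had not been used for clustering. The comparisons share their sums. Statements on other classes, highest or lowest below are over these 16 classes, and do not cover the 4 classes with enough cells in 1 library only (B lineage-like, Nefh and Snap25, Fabp3 and Rbp7, stria intermediate cell-like), some of whose values are set beside them. Levels (per 1000000) are UMIs of a gene out of 1000000 UMIs outside haemoglobin. Log2 differences are on the scale of the fit. Of the 87 members, 84 passed the filter on low counts, and Rpl39l, Rpl3l and Rpl10l did not. A test of any difference among the classes called 81 of the 84, against 83.8% of all genes tested, so nearly all members varied, as did most genes. The exceptions were Rpl41, Rpl36al and Rps19bp1.

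In hair cell-like cells 72 of the 84 members were lower and 0 higher, where 12.1% of all genes tested were lower. The members' median log2 difference was -1.39, against -0.04 over all genes, and 83 of the 84 were negative in both libraries (medians -1.17 and -1.66). Of all UMIs outside haemoglobin, Rplp0, the stalk protein that helps recruit elongation factors, had 839 and 585 per 1000000, below the other 15 classes in each library (1298 to 7517 and 939 to 4424). Outside the 16 it was lower still in the Nefh and Snap25 cluster (287, library 1) and in stria intermediate cell-like cells (487, library 2). It was 2.19 lower on the log2 scale (SE 0.39, edgeR adjusted p = 2.08e-07). The next lowest were Rpl23a (-2.18), whose protein lies at the tunnel where the new chain leaves, Rps24 (-2.01), Rps12 (-1.99) and Rps9 (-1.97), all small subunit proteins.

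Rps6, the small subunit protein phosphorylated after growth signals, was lower by a log2 difference of -1.92, with 1127 and 640 per 1000000 against medians of 2987 and 2462 over the other classes. Rpl11 and Rpl5, which together bind the p53 regulator MDM2, had -1.88 and -1.32, and Rps19, the gene most often mutated in Diamond-Blackfan anaemia, had -1.77. Members that did not pass the test in hair cell-like cells included Rps29 at -0.24, with 3875 and 7431 per 1000000, inside the range of the other classes in both libraries. Rpl41 stood at -0.50, Rplp1 at -0.70 (adjusted p = 0.0996), Rpl36al at -0.24 and Rps27l at -0.42.

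The Fxyd2 cluster had 68 members lower and 0 higher, with 4.95% of all genes lower, and a members' median of -1.10 against +0.15. Rpl17, a large subunit protein, had 1049 and 694 per 1000000, where the other 15 classes ran from 1031 to 3944 and from 1030 to 3809, so it was below all of them in library 2 and just above hair cell-like cells in library 1. Its log2 difference was -1.51 (SE 0.36, edgeR adjusted p = 0.00021). Rps4x (-1.50), Rps12 (-1.47), Rpl32 (-1.46) and Rps20 (-1.44) were close to it. Rps27l at +0.12 and Rpl36al at -0.17 did not pass.

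A direct comparison of fibrocyte-like with fibroblast-like cells had been planned, but no cluster was named fibrocyte-like, and the Fxyd2 cluster took its place after its markers were seen. Set against fibroblast-like cells, it had 78 of 84 members lower (11.7% of all genes) and a median of -1.51. Rpl17 had a log2 difference of -2.12 (SE 0.44, adjusted p = 2.49e-05), and Rps4x, Rpl13 and Rps18 lay between -2.11 and -1.96. The smallest distance from 0 among the named ones was that of Rpl27 at -1.08 (adjusted p = 0.0421).

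At the other end, the Tnc and Ccl17 cluster had 64 members higher and 0 lower, where 22.2% of all genes were higher and 3.86% lower, with a median of +0.83 against +0.14. Rps3a1, a small subunit protein at the messenger RNA exit, had 4771 and 4847 per 1000000, above the other 15 classes in each library (highest 4654 and 4498). Its log2 difference was +1.21 (SE 0.27, edgeR adjusted p = 7.43e-05). Rps19 had 5882 and 4816 per 1000000, also the highest of all 16 classes in both libraries, and +1.197. Rpl13 (+1.19), Rpl37a (+1.10) and Rps28 (+1.09) were near them. Rpl41 at +0.27, Rps27l at -0.25 and Rpl36al at -0.21 did not pass.

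The fibroblast-like cells and the clusters led by Fam71a, Gm42726 and Lox went the same way with smaller counts and 0 members lower. The Fam71a and Apold1 cluster had 47 higher (22.7% of all genes, with 3.27% lower, median +0.73), with Rps3a1 at +1.07 and Rpl13 at +1.04. The Gm42726 and Tnfaip6 cluster had 22 higher (11.1%, with 0.889% lower, median +0.69), led by Rps3a1 at +1.05. The Lox and Rarres1 cluster had 12, a share near the 14.1% of all genes (1.92% lower), so the count does not set the members apart. Their median there was +0.59, led by Rps3a1 at +1.08. In fibroblast-like cells 9 were higher, a share below the 17.9% of all genes (2.9% lower), with a median of +0.52 and Rpl13 first at +0.88. Without the library block these 4 counts were 11, 3, 1 and 0, and that of the Tnc and Ccl17 cluster was 32. With DESeq2's test they were 74, 67, 66 and 48.

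**Figure D3:**
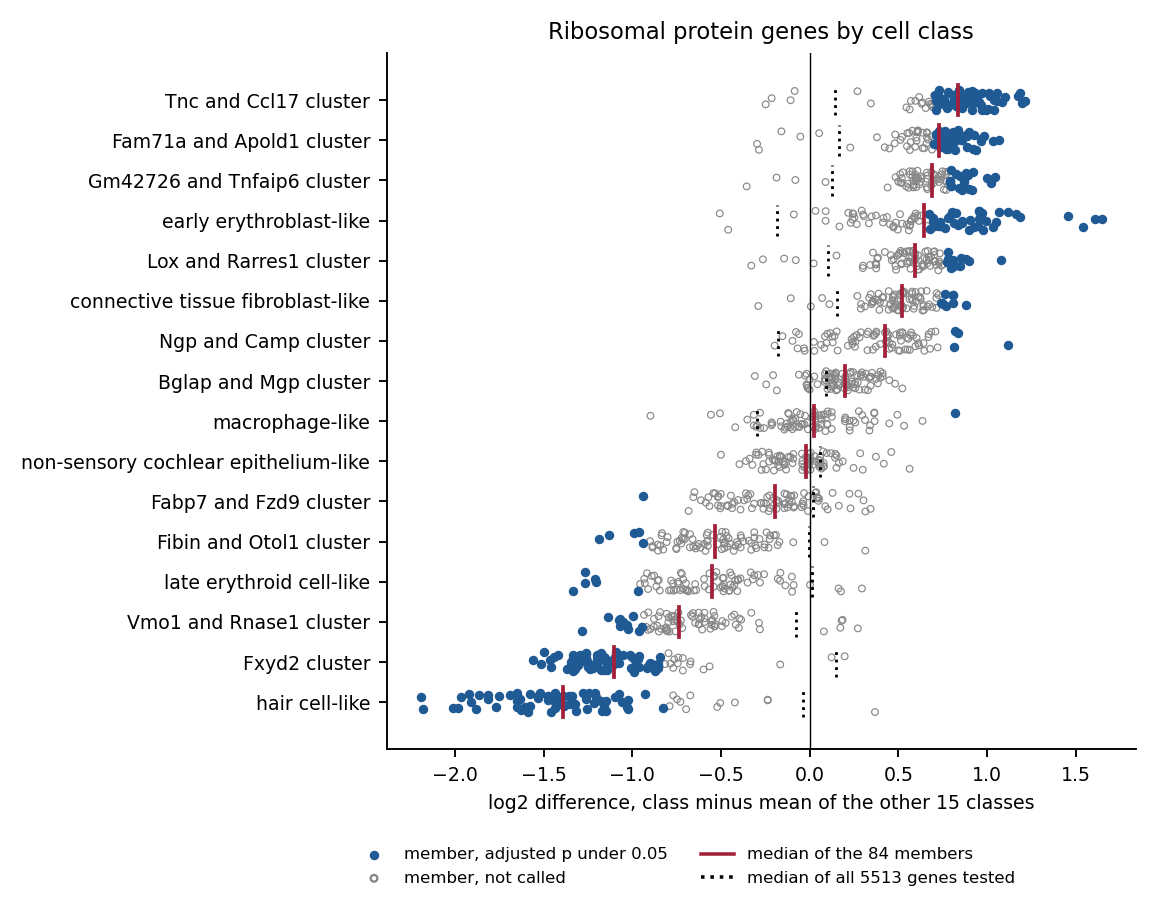
Log2 difference of each of the 84 tested members between a class and the mean of the other 15, 1 point per gene, with the median of the members and of all 5513 genes tested. The members' median was -1.39 in hair cell-like cells, -1.10 in the Fxyd2 cluster and +0.83 in the Tnc and Ccl17 cluster.

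Early erythroblast-like cells had 41 members higher and 0 lower, where 26.2% of all genes were higher and 17.1% lower, with a median of +0.64 against -0.18. The libraries did not go together: the members' median was +1.15 in library 1 (85 cells) and -0.15 in library 2 (7 cells), and 30 of the 84 members were higher in both. The 4 leading genes were among those 30. Rps2, whose protein lies at the messenger RNA entry, had 6920 and 3823 per 1000000, above the highest of the other 15 classes (3143 and 2493), and a log2 difference of +1.65 (SE 0.26, edgeR adjusted p = 4.4e-09). Its value was +2.23 in library 1 and +0.78 in library 2.

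Rpsa, a small subunit protein also known as the laminin receptor, had 3592 and 2212 per 1000000 against at most 2509 and 1524 in the other 15, and +1.61 (adjusted p = 1.13e-08). Rplp0 had 7517 and 4424 per 1000000 against at most 4644 and 2799, and +1.46. The paralogue Rps27l, which is induced by p53, had 894 and 914 per 1000000 against at most 472 and 494, and +1.54 (adjusted p = 3.93e-08). These 4 genes were the highest of all 16 classes in both libraries. B lineage-like cells of library 1, which are not among the 16, came nearest, with 4403 per 1000000 for Rps2, 3229 for Rpsa, 6133 for Rplp0 and 581 for Rps27l. Rps26 (+1.19) and Rpl7l1 (+1.16) also rose. Rps19 at +0.50 (adjusted p = 0.18) and Rps27 at -0.46 (adjusted p = 0.28) did not pass. With DESeq2 size factors or library sizes only, the median of all genes in this comparison moved to -0.63 and -0.41, and the members' stayed 1.05 and 1.04 above it.

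In late erythroid cell-like cells 6 members were lower (1.56% of all genes, median -0.55). Rps28 had 508 and 726 per 1000000, below the other 15 classes (687 and 1345 at the lowest), and -1.33, and Rpl15 had 361 and 134 and -1.27. Outside the 16, Rps28 had 404 in the Nefh and Snap25 cluster (library 1) and 1229 in stria intermediate cell-like cells (library 2). Rpl6l, Rpl36, Rpl35 and Rps25 were the other 4, from -1.27 to -0.97. The count was 72 when sums were scaled by their totals alone.

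The remaining classes had few calls. The Vmo1 and Rnase1 cluster had 11 members lower (2.45% of all genes, with 10.3% higher, median -0.74), with Rpsa at -1.28, and the Fibin and Otol1 cluster had 5 (3.85%, -0.53), with Rps24 at -1.19. The first count was 51 with DESeq2 size factors and 1 without the library block, the second 30 and 2. In the Ngp and Camp cluster, with 10 of 10 neutrophil lineage markers, 4 were higher, below the 16.6% of all genes (9.92% lower), and Rpsa led at +1.12. The members' median there was +0.43 over both libraries and -0.25 in library 2 (4 cells). Macrophage-like cells had 1 gene higher (10.5% of all genes, with 3.63% lower), Rps29, with 7273 and 8301 per 1000000 and +0.82 (adjusted p = 0.0323). Rpsa was the 1 gene lower in the Fabp7 and Fzd9 cluster (4.32%), at -0.94. The Bglap and Mgp cluster (13.1% of all genes higher and 1.29% lower) and non-sensory epithelium-like cells (14.2% and 2.92%) had 0 calls, and 0 members had an unadjusted p under 0.05 there.

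The second question was which members departed from the family. For this the sums were scaled by the family's own total, so that a value is a member's share of ribosomal protein UMIs. On this scale 21 of 84 members differed among classes, where 95.4% of all genes did. Dividing by the family's sum takes out the members' shared variation and passes it, inverted, to all other genes. On the main scale 4621 of 5513 genes and 81 members were called, and on the family scale 5262 and 21. The shares of all genes given on this scale thus carry the class's ribosomal share and are no plain background. The 10 largest F statistics belonged to Rps27l, Rpl36al, Rpl41, Rps19bp1, Rps29, Rplp0, Rpsa, Rpl22l1, Rpl7l1 and Rps26. Of these, 4 are paralogues and 1 is no ribosomal protein. The other 63 tested members did not pass this test, and Rps19, Rpl5 and Rpl38 also passed in no single class. Rps6 and Rpl11 passed in hair cell-like cells alone of the 16, at -0.65 and -0.61.

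**Figure D4:**
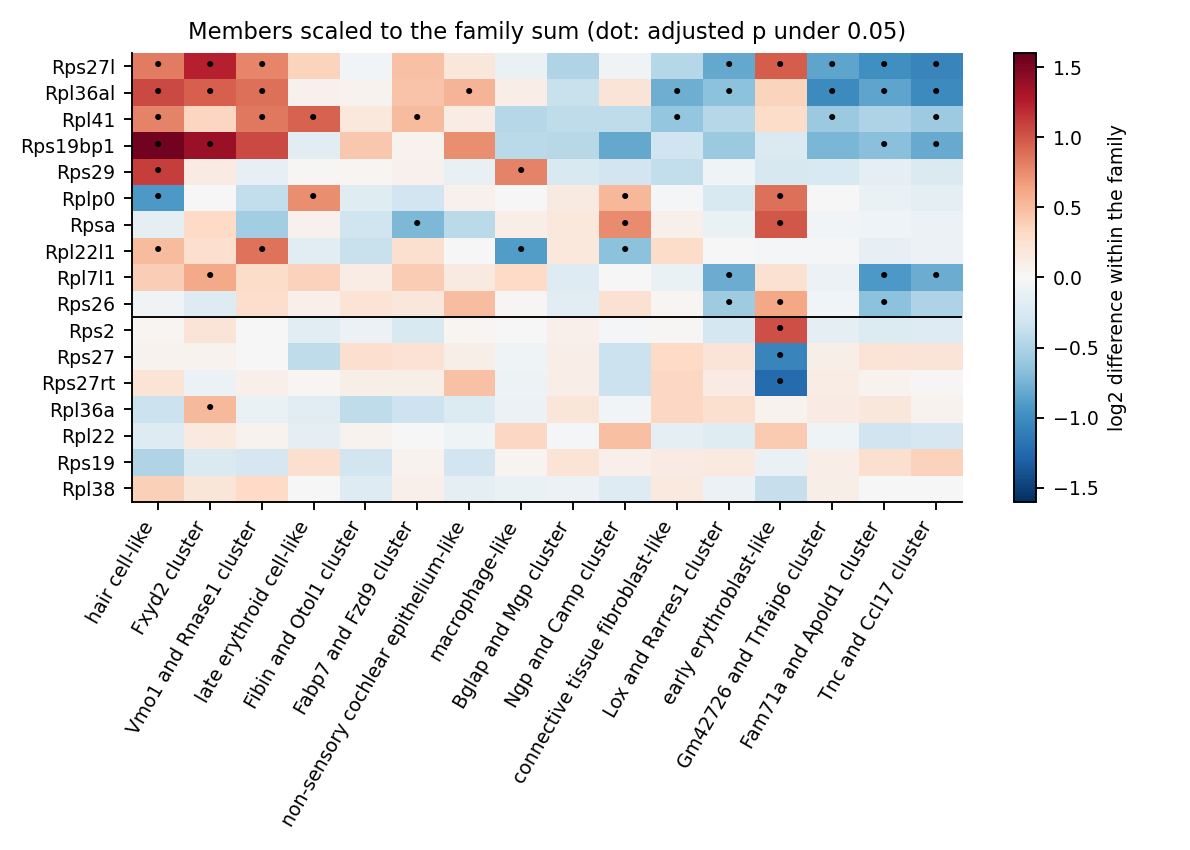
Share of the family's UMIs (log2 difference from the mean of the other classes, fit scaled by the family sum) for the 10 members that varied most, by class. Rps27l and Rpl36al are high in hair cell-like cells and the Fxyd2 cluster, and low in Tnc and Ccl17 cells.

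Rps27l made up 25.01% of Rps27 and Rps27l UMIs in early erythroblast-like cells of library 1 (exact interval 23.6% to 26.5%) and 27.7% in library 2 (20.4% to 36.03%). The next of the 16 classes, the Fxyd2 cluster, had 15.9% and 17.7%, and the lowest, the Tnc and Ccl17 cluster, 4.22% and 3.67%. The medians over classes were 10.02% and 6.77%. Both ends of the order of these 16 thus stood in the same classes in the 2 libraries. Stria intermediate cell-like cells of library 2, outside the 16, had 27.3% (39 of 143 UMIs, 19 cells), close to the early erythroblast-like cells. Within erythroid cells the share was 25.4% and 30.7% in early cells under 50% haemoglobin, 20.7% and 19.4% in early cells above it, and 13.2% and 12.8% in late ones, though the last value rests on 6 Rps27l UMIs.

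Rps27 itself fell as a share of the family in early erythroblast-like cells, to 0.966% and 1.17%, under the other 15 classes (1.37% and 1.36% at the lowest), with a log2 difference of -1.06 (edgeR adjusted p = 4.09e-05). Rps27rt had -1.23, but cannot be told from Rps27 by its coding sequence. In the same cells Rps2 took 2.49% and 1.88% of the family, against at most 1.41% and 1.15% in the other 15 (+1.03) and 1.66% in B lineage-like cells of library 1, Rpsa 1.30% and 1.09% (+0.99) and Rplp0 2.71% and 2.18% (+0.88). In all, 8 members rose and 6 fell against the family, where 13.2% of all genes were higher and 35.0% lower on this scale. Rps14, at -0.66, was the next after the Rps27 copies to fall.

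Erythroid cells differed in these shares by their haemoglobin. The Rps2 share of the family was 2.57% and 2.06% in early cells under 50% haemoglobin, 1.25% and 1.27% in early cells above it, and 0.9505% and 1.10% in late cells. Rpsa went from 1.31% and 1.23% to 1.11% and 0.610% and then to 0.767% and 0.465%. Rpl41, the shortest member with 75 coding bases, was higher in late than in early cells under 50%: 3.02% and 4.203%, then 4.94% and 7.38%, then 3.98% and 8.63%. Rps29 peaked in the middle group, with 3.22% and 5.44%. Against the family Rpl41 was +0.95 and Rplp0 +0.74 in late erythroid cell-like cells, where 3 members rose and 4 fell (16.9% and 0.653% of all genes).

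Rpl36al made up 48.1% of Rpl36a and Rpl36al UMIs in hair cell-like cells of library 1 (44.6% to 51.6%) and 55% in library 2 (38.5% to 70.7%, 4 cells). Among the 16 classes the Vmo1 and Rnase1 cluster followed with 44.6% and 43.8%. Of the others, the Nefh and Snap25 cluster had 47.9% and the Fabp3 and Rbp7 cluster 45.05% in library 1, and stria intermediate cell-like cells had 55% in library 2, the value of the hair cell-like cells there. The lowest were fibroblast-like cells at 15.3% in library 1 and the Gm42726 and Tnfaip6 cluster at 15.8% in library 2. Hair cell-like cells and the Vmo1 and Rnase1 cluster thus held the upper end of the 16 in both libraries. For Rpl22l1, whose partner Rpl22 is a large subunit protein, the copy was the larger part in most classes, from 44.5% in macrophage-like cells to 75.03% in hair cell-like cells of library 1, with 42.1% in the Fabp3 and Rbp7 cluster. In library 2 it ran from 21.1% in the Ngp and Camp cluster (4 cells) to 68.8% in the Vmo1 and Rnase1 cluster. Rpl7l1 stayed a minor part of its pair, at most 5.00% in library 1 and 6.06% in library 2 over the 16 classes. It was 9.90% in the Nefh and Snap25 cluster (10 UMIs, library 1) and 12.7% in stria intermediate cell-like cells (9 UMIs, library 2). Of the 16 UMIs of Rpl39l, 5 were in early erythroblast-like and 4 in B lineage-like cells of library 1, too few for a comparison.

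Hair cell-like cells showed the most departures, with 12 members higher and 10 lower against the family (52.3% and 2.85% of all genes). Rps29 took 4.18% and 7.65% of the family, where the other classes had medians of 2.25% and 2.91%, with a log2 difference of +1.10 (SE 0.18, edgeR adjusted p = 2.48e-07). Only macrophage-like cells, at 4.43% in library 1, exceeded it in either library. Rpl41 took 5.15% and 5.85% (+0.80), Rpl36al was +1.05 and Rps19bp1 +1.55. Rplp0, with 0.905% and 0.602%, the lowest of the 16 classes (0.578% in the Nefh and Snap25 cluster, outside them), fell by 0.92 on the log2 scale, and Rpl23a by 0.91.

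In the Fxyd2 cluster 7 members rose against the family and 1 fell (69.5% and 0.381% of all genes). Rps27l took 0.399% and 0.483%, with +1.25. Stria intermediate cell-like cells of library 2 had 0.776%. Rps19bp1 had +1.38 and Rpl36al +0.95. In the Tnc and Ccl17 cluster 5 members fell and 0 rose (31.5% and 9.05%), namely Rps27l (-1.05), Rpl36al (-1.02), Rps19bp1 (-0.81), Rpl7l1 (-0.80) and Rpl41 (-0.58). Rps27l and Rpl36al there had the lowest shares of the 16 classes in both libraries. Out of 1000000 UMIs these genes were closer between the 2 clusters than most of the family: Rps27l had 362 and 355 in the first and 258 and 251 in the second.

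The same genes recurred in the neighbouring clusters. Against the family, 0 members rose and 5 fell in the Fam71a and Apold1 cluster (10.9% and 24.9% of all genes), led by Rps27l at -0.98, and 0 rose and 3 fell in the Gm42726 and Tnfaip6 cluster (6.24% and 11.6%), led by Rpl36al at -1.01. In the Lox and Rarres1 cluster 4 fell, led by Rps27l at -0.82, and Rps3a1 rose (8.62% and 12.3% higher and lower). In fibroblast-like cells Rpl36al (-0.78) and Rpl41 (-0.62) fell (11.8% and 11.2%). In the Vmo1 and Rnase1 cluster Rpl36al (+0.89), Rpl22l1 (+0.87), Rpl41 (+0.85) and Rps27l (+0.79) rose and 0 fell (26.1% and 0.871%). Against fibroblast-like cells the Fxyd2 cluster had Rpl36al at +1.62, Rps27l at +1.595, Rps19bp1 at +1.59 and Rpl41 at +0.90, while Rpl17 and Rps4x were lower (62.9% and 2.1%).

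The remaining classes had few departures, some of them of genes named above. In macrophage-like cells Rps29 (+0.79) rose against the family and Rpl22l1 (-0.89) fell (10.9% and 3.48% of all genes). In the Fibin and Otol1 cluster Rpl31 took 1.56% and 2.19% of the family, the highest of the 16 classes (+0.84), against 1.578% in the Fabp3 and Rbp7 cluster of library 1, Rps14 also rose and Rps24 fell (28.0% and 1.94%). In the Ngp and Camp cluster Rpsa (+0.75), Rplp0 (+0.54) and Rpl32 (+0.52) rose and Rpl22l1 (-0.66) fell (10.7% and 25.6%). In the Fabp7 and Fzd9 cluster Rpl3, Rpl31 and Rpl41 rose and Rpsa (-0.72) fell (24.2% and 2.68%). Non-sensory epithelium-like cells had Rpl36al higher at +0.54 (19.1% and 2.3%), and the Bglap and Mgp cluster had 0 calls (10.5% and 3.17%).

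The ratio of large to small subunit UMIs was 1.27 in macrophage-like cells of both libraries and 1.49 and 1.59 in late erythroid cell-like cells. In library 1 the Ngp and Camp cluster also had 1.27. Hair cell-like cells had 1.504 and 1.43 and Tnc and Ccl17 cells 1.31 and 1.30. These ratios sum over 46 and 31 genes and carry no test.

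The other genes of the translation machinery did not all follow the ribosomal proteins. Among ribosomal proteins outside the name rule, Fau, made as a ubiquitin-like fusion, and Gnb2l1, the scaffold also called Rack1, were lower in hair cell-like cells (Fau -1.28, Gnb2l1 -1.09). In early erythroblast-like cells Gnb2l1 (+1.48) rose and Fau stood at +0.19. Of 18 elongation factor and other TOP genes tested, 14 were lower and 0 higher in hair cell-like cells (median -1.41), with Npm1, a nucleolar chaperone, at -2.12 and Eef1d and Eef1b2, subunits of the elongation factor exchange complex, at -2.11 and -1.64. In the Fxyd2 cluster 8 of 18 were lower (median -0.62), and in the Tnc and Ccl17 cluster 7 of 18 were higher (median +0.51).

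Ribosome biogenesis genes, which act in the nucleolus, were higher in early erythroblast-like cells in 32 of 37 tested, with 0 lower and a median of +1.79. Nop58 (+3.21), a core protein of the particles that methylate ribosomal RNA, Nolc1 (+2.83) and Mrto4 (+2.79) led, with the growth regulator Myc at +3.70. Translation initiation genes were higher in 24 of 27 and lower in 1 (median +1.19; Eif2s1 +2.67), and mitochondrial ribosomal proteins, a separate set of genes for the mitochondrial ribosome, in 56 of 76 and lower in 1 (median +1.00). The ribosomal protein members had a smaller median, +0.64, in the same cells, and all these values rest on 7 cells in library 2.

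In the Tnc and Ccl17 cluster, where 64 members were higher, 2 of 37 biogenesis genes were higher and 2 lower (median 0.00), 0 of 27 initiation genes changed (median -0.09) and 3 of 76 mitochondrial ribosomal proteins were lower and 0 higher. In hair cell-like cells 10 of 37 biogenesis genes were lower and 2 higher (median -0.32), 8 of 27 initiation genes lower and 1 higher, and 2 of 76 mitochondrial ribosomal proteins lower and 4 higher (median -0.16). In the Fxyd2 cluster 11 mitochondrial ribosomal proteins were higher and 0 lower. Of 22 ribosomal protein genes linked to Diamond-Blackfan anaemia, all members here, 20 were lower in hair cell-like cells, 19 lower in the Fxyd2 cluster, 18 higher in the Tnc and Ccl17 cluster and 10 higher in early erythroblast-like cells (median +0.61, near the +0.64 of all 84).

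The libraries differed in the make-up of the family in all 16 classes. As a share of the family, Rps27rt was higher in library 2 in 15 of 16 classes (median log2 difference between libraries +1.43), and Rps21 (+0.73), Rpl27 (+0.64), Rps28 (+0.53), Rpl38 (+0.51) and Rpl39 (+0.44) in all 16. Rplp0 (-0.43), Rpl3 (-0.39), Rpl22l1 (-0.29) and Rps19 (-0.28) were higher in library 1 in all 16. In all, 6 members had the same positive and 9 the same negative sign in every class. Over 82 members the difference went with coding length (Spearman's rho -0.591, a description across genes), with short genes higher in library 2. The block for library takes out such a difference where it is equal in all classes. What sets it was not tested, and levels from different libraries are compared here only within a library. These genes were chosen for display after their values were seen.

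**Figure D5:**
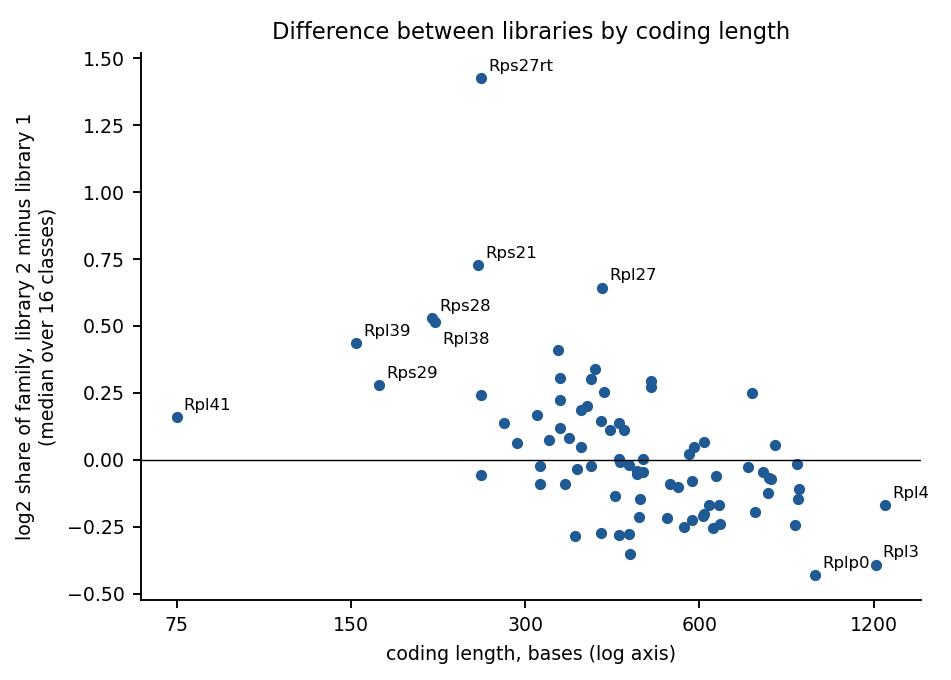
Median over 16 classes of the log2 difference between libraries (library 2 minus library 1) in a member's share of the family, against coding length in bases (log axis), 1 point per member. Short members tend to lie above 0, among them Rps21 (+0.73) and Rpl39 (+0.44), and Rplp0 (-0.43) and Rpl3 (-0.39) lie below.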

How the data were processed

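The values used were whole-number UMI counts per gene and barcode, deposited by the authors; per the submitters' processing notes they were made with Cell Ranger 2.1.0 on mm10. The sources used here do not say how barcodes were picked. Coordinates are GENCODE M21 or RefSeq GRCm38.p6, the same genome. Kept barcodes had 300 genes or more and no more than 20% mitochondrial UMIs (275 and 60 had fewer genes, and 4 and 16 more mitochondrial UMIs), and Scrublet's method at an expected rate of 2% took out 2 and 4 doublets. Leiden clustering at resolution 1.0 (scanpy 1.11.5, Python 3.11.15) used 2031 genes and none of the 14046 held out, among which are all members and list genes. Thresholds for naming clusters were set after the clustering had been seen.

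Sums of 32 library-and-class pairs with at least 4 cells and 20000 UMIs outside haemoglobin in each library entered edgeR 4.0.16 (R 4.3.3): TMM factors (0.651 to 1.77), filterByExpr at a count of 10 or more (11065 genes), a robust quasi-likelihood fit, haemoglobin genes left out, and the library as block, because the classes of a library come from 1 suspension. The threshold was an adjusted p of 0.05. A check on simulated counts of the Tnc and Ccl17 comparison (9741 genes) recovered 55 of 81 doubled genes (67.9%) and 14 of 76 halved ones (18.4%), and called 3 of 4690 unchanged genes, so halved genes are often missed. Genes were named by rule: the 5 members with the most and fewest UMIs, paralogues and ribosomal proteins outside the name rule, 10 members of known interest (Rps19, Rpl5, Rpl11, Rpl38, Rpsa, Rps6, Rplp0, Rplp1, Rplp2, Rps27a), up to 6 called members per comparison farthest from the members' median with 1 sign in both libraries, the 10 that varied most within the family, and up to 4 genes per other list. The members and lists were chosen with earlier results of these data known. Alternatives were DESeq2 1.42.0, other scalings and filters, no block and leaving out a library. Results for some genes are not reported here.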

Additional observations from a re-analysis of the deposited data

Results flagged for a closer look

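Ribosomal protein UMIs also appeared in data the comparisons left out. Barcodes removed for having under 300 genes held 8996 ribosomal protein UMIs in library 1 (11.0% of their 81562 UMIs outside haemoglobin) and 2022 in library 2 (10.6% of 19024). These shares are close to those of late erythroid cell-like cells, 10.1% and 8.10%. All filters together took library 1 from 20212520 UMIs to 18479820, haemoglobin included. With 81562 UMIs outside haemoglobin, these barcodes of library 1 thus probably held mostly haemoglobin.

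The 16 genes with "-ps" names, left out by the name rule, held 45836 UMIs over both libraries. Rps12-ps3 has the same coding sequence as Rps12 and Rpl9-ps6 is 99.8% identical to Rpl9, so the counts of these parent genes may be split. As a share of the family, Rpl27-ps3 (+1.45), Rps12-ps3 (+1.25) and Rpl23a-ps3 (+0.87, median log2 difference) were higher in library 2 in all 16 classes. Their part in the results above was not tested.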

How the results depend on the processing

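The sum over classes of members called was 200 higher and 163 lower. It was 407 and 298 with DESeq2 size factors, 350 and 263 with library sizes only and 451 and 351 with DESeq2's test. The counts of the hair cell-like and the Fxyd2 comparisons stayed within 1.5 times. In the order DESeq2 size factors, library sizes only where given, and DESeq2's test, the others were: Fam71a and Apold1 higher 75 and 74 (main 47); Gm42726 and Tnfaip6 higher 63, 49 and 67 (22); Lox and Rarres1 higher 62, 46 and 66 (12); fibroblast-like higher 33, 34 and 48 (9); Vmo1 and Rnase1 lower 51, 21 and 62 (11); Fibin and Otol1 lower 30, 8 and 40 (5); late erythroid lower 35, 72 and 40 (6). With no filter on low counts Fibin and Otol1 had 2, Gm42726 and Tnfaip6 5 and Lox and Rarres1 4. With a class minimum of 10 cells Lox and Rarres1 had 20, Vmo1 and Rnase1 66 and late erythroid 31, and without erythroid classes Fibin and Otol1 had 16, Gm42726 and Tnfaip6 35, Vmo1 and Rnase1 33 and fibroblast-like 15. The causes were not tested.

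Without the replicate block 79 members were called higher in all. The counts were then 11 for Fam71a and Apold1, 2 for Fibin and Otol1, 3 for Gm42726 and Tnfaip6, 1 for Lox and Rarres1, 32 for Tnc and Ccl17, 1 for Vmo1 and Rnase1 and 0 for fibroblast-like. Against the family 30 were higher and 28 lower without the block. Library numbers pair classes here because the classes of a library share 1 suspension.

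Of 659 checks on 77 named gene and class pairs, 616 kept direction and call and 43 lost the call. The members' median kept its sign in every comparison under DESeq2 size factors, library sizes only and TMM without the members. Scaled by the family sum, 21 members differed among classes in place of 81, and 11 did so on that scale without the library block. The ratio of the highest to the lowest fitted share was 3.15, 26.2 over all UMIs (haemoglobin included) and 3.07 to 3.54 leaving out a library. With no test possible on 1 library, the members' median changed sign without replicate 1 and not without replicate 2 in the Fabp7 and Fzd9 cluster (+0.0376 and -0.345), the Ngp and Camp cluster (-0.253 and +0.853), early erythroblast-like (-0.153 and +1.15) and non-sensory epithelium-like cells (+0.263 and -0.29), and without replicate 2 in macrophage-like cells (-0.0902, and +0.165 without replicate 1). Depth limits the classes with 4 to 7 cells in library 2: hair cell-like, Ngp and Camp, early erythroblast-like, Fabp7 and Fzd9 and Fibin and Otol1. Chosen after seeing the data, early erythroblast-like cells under 50% haemoglobin had a share of 31.4%.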

Other observations

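The Ngp and Camp cluster of neutrophil lineage cells was split in its ribosomal share as the early erythroblasts were. Its 34 cells of library 1 with the late genes S100a8, S100a9 and Retnlg under 10% of UMIs had a median ribosomal share of 26.4%. The 24 cells at or above 10% had 5.46% (8.07% with these 3 genes taken out of the denominator). In library 2 the medians were 31.4% (2 cells) and 4.14% (2 cells). The first 2 cells had 0% of UMIs in these 3 genes and 0% in the early granule genes Elane, Mpo and Prtn3. Those genes thus place them at no stage, and the other 2 cells also had 0% in the early genes. Over the 58 cells of library 1 Spearman's rho between the ribosomal share and the late genes was -0.826, and -0.792 with these genes out of the denominator. With the early granule genes Elane, Mpo and Prtn3 it was +0.561. These cells and genes were chosen after values had been seen, and the relations are descriptions over cells of 1 library.

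The relation of cycling genes to the ribosomal share differed in sign among classes. Over 71 B lineage-like cells of library 1, rho between the share of Mki67, Top2a, Pcna, Mcm5, Cdk1 and Birc5 and the ribosomal share was -0.583. Over 85 early erythroblast-like cells it was -0.752. It was +0.288 over 58 cells of the Ngp and Camp cluster, which had 11.2 cycling UMIs per 10000. Both of these classes mix cells of unlike ribosomal share, with medians of 32.1% and 8.01% in the first and 26.4% and 5.46% in the second. Their rho is thus no relation within 1 kind of cell. In the Fam71a and Apold1 cluster rho was +0.248 and -0.0205 (44 and 126 cells), with 0.404 and 0.411 cycling UMIs per 10000. In the Tnc and Ccl17 cluster it was +0.104 and +0.275 (167 and 30 cells), with 0.355 and 0.409. The values of these last 2 clusters lie near the floor of the counts and say little about sign. Between classes of library 1, B lineage-like and early erythroblast-like cells had the most cycling UMIs of those measured, 26.8 and 33.5 per 10000, and the highest ribosomal shares, 26.5% and 27.7%. In the Tnc and Ccl17 cluster, with 25.6%, cycling UMIs were 0.355 per 10000.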
